A study of Mus musculus with 2 samples.

Results

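The mouse major histocompatibility complex (MHC, called H2) was examined on chromosome 17 between bases 33900000 and 37500000 of mm10 (GRCm38), a stretch of 3.60 Mb. Its members were all DNase-seq peaks that overlap that stretch, 650 of 132737 peaks in replicate 1 and 495 of 69798 in replicate 2. All footprints in it were taken as well, 2325 of 375374 in replicate 1 and 1621 of 210014 in replicate 2. Each peak and footprint was given to the nearest protein-coding transcription start of GENCODE and classed by that gene. Class I held the genes of the H2-K, H2-D, H2-Q, H2-T and H2-M families. Class II and processing held the H2-O, H2-DM, H2-A and H2-E genes with Tap1, Tap2, Tapbp, Psmb8 and Psmb9, and all remaining genes formed a class called other. The predicted class I genes Gm7030, Gm8909 and Gm11127 were thus classed as other.

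The 2 libraries were made from the thymus of female mice aged 10 days of the strain B6CASTF1/J, the F1 hybrid of C57BL/6J and CAST/EiJ, with no treatment named and no control. The labels number the females separately, and both samples carry the same donor identifier, so the replicates were read as animals of the same genetic background. DNase-seq cuts nuclei with DNase I, which cleaves DNA where chromatin is open. A peak marks such an open site, and a footprint is a short run of bases inside open DNA that is cut less than its surroundings. The library depth is not given in the sources used here, and replicate 1 held more peaks than replicate 2 throughout the genome. Heights were therefore also divided by the median height of all peaks of the same library (0.625 in replicate 1 and 0.828 in replicate 2), and a height written as "over the library median" is that ratio. On the log2 scale, replicate 1 exceeded replicate 2 by a median of 0.91 in such ratios over all overlapping pairs of the genome. In deposited heights it did by 0.51, so the division widened the difference between the replicates. In whole tissue, fewer cells with an open site and less opening per cell cannot be told apart.

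Class I molecules sit on nearly all nucleated cells and show peptides from the cytosol to CD8 T cells. The immunoproteasome subunits Psmb8 and Psmb9 help cut those peptides, the transporter of Tap1 and Tap2 brings them into the endoplasmic reticulum, and tapasin (Tapbp) helps load them. Class II molecules are made by dendritic cells, B cells, macrophages and thymic epithelium and show peptides to CD4 T cells, with H2-DM as the loading catalyst and H2-O as its modulator. In the thymus both kinds of molecule, carried by epithelium and dendritic cells, select developing T cells. The promoters of both kinds share upstream boxes bound by RFX, CREB-like and NF-Y proteins, brought together by the activator Ciita at class II genes and Nlrc5 at class I genes.

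Labels and markers were compared first. Of 8 thymocyte genes, 8 had a promoter peak in both replicates. A promoter peak was found in both replicates for 2 of 6 thymic epithelium genes (Aire and Epcam, with Foxn1 without one), and for 0 of 5 genes of dendritic cells and macrophages and 0 of 3 hepatocyte genes. Of 4 B cell genes, 1 had one in replicate 1 (Cd79b) and 0 in replicate 2.

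The sequences of 9 peaks show where the footprints lay in the promoters of classical and other class I genes, of class II genes and of the Tap1 promoter, and in 3 of the highest peaks far from a start. Capitals mark the bases that lay in footprints of both replicates, and lower case the remaining bases. The promoters are written along the strand of their gene and the distal peaks along the plus strand, as the replicate 1 peak is bounded. The first 3 are of class I, at chr17:34000261-34000520 (minus strand), chr17:35262901-35263080 and chr17:37270101-37270300 (plus strand).
H2-K1 promoter peak: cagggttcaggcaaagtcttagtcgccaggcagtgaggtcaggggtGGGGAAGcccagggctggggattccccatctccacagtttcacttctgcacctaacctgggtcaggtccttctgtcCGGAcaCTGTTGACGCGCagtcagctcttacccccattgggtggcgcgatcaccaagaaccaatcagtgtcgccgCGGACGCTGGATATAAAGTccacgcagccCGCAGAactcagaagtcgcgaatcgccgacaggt
H2-D1 promoter peak: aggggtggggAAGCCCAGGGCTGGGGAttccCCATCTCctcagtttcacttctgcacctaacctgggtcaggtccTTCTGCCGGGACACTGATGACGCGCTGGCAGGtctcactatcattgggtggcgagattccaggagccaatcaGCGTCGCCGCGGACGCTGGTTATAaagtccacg
H2-M3 promoter peak: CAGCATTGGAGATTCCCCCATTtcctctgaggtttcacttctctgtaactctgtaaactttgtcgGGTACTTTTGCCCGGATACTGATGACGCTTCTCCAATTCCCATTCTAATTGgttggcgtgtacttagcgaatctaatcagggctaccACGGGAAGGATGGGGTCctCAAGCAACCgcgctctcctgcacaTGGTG
The next 3 belong to class II and processing and lie on the plus strand, at chr17:34263081-34263280, chr17:34305681-34305880 and chr17:34187341-34187560. The third of them is the peak that Tap1 shares with Psmb9, whose start lies on the opposite strand.
H2-Ab1 promoter peak: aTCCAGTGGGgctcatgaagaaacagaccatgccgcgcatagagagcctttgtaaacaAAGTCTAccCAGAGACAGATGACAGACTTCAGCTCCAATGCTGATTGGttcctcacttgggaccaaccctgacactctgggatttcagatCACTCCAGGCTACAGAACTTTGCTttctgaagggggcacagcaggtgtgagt
H2-Eb1 promoter peak: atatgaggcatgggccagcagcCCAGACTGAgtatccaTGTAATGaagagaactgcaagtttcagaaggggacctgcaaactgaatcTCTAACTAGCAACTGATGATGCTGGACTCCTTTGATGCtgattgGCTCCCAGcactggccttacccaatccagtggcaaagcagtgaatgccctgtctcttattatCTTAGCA
Tap1 promoter peak: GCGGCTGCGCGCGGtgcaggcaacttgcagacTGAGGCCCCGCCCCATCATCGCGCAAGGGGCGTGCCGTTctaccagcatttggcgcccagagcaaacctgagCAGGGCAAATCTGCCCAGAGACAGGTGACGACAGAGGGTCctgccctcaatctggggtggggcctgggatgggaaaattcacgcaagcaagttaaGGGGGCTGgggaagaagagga
The distal peaks lay 4390 bp from the nearest start of H2-D1 (chr17:35258241-35258440), 9350 bp from that of H2-Oa (chr17:34101601-34101780) and 16954 bp from that of Prr3 (chr17:35997081-35997300).
H2-D1 distal peak: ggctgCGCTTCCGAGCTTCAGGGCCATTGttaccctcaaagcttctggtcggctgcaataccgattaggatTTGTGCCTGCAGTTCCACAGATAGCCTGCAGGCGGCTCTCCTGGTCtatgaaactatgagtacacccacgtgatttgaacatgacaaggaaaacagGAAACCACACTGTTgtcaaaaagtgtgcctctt
H2-Oa distal peak: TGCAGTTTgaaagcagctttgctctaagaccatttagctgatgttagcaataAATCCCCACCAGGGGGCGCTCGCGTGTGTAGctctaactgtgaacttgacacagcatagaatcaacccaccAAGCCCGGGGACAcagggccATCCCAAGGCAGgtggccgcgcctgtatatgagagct
Prr3 distal peak: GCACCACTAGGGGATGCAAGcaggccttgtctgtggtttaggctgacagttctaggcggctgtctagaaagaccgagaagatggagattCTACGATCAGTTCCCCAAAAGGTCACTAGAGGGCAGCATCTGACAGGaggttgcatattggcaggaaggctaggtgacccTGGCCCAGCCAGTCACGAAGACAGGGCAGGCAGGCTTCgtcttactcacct
All 9 sequences were read from the GRCm38.p6 reference, which is of C57BL/6J, so bases of the CAST/EiJ chromosomes may differ.

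The bases in footprints of both replicates numbered 48 of 260 in the H2-K1 promoter peak, 80 of 180 in that of H2-D1 and 104 of 200 in that of H2-M3. They numbered 79 of 200 at H2-Ab1, 69 of 200 at H2-Eb1 and 101 of 220 at Tap1. In all of the 6 promoter peaks the capitals thus formed a few separate runs rather than 1 block.

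The named letters were searched on both strands, and a match is a description of the sequence alone. The Y box letters CTGATTGG, the core of the NF-Y site of MHC promoters, occurred in 4 of the 12 class II and processing promoter peaks that lay at the same place in both replicates (H2-Ab1, H2-Aa, H2-Eb1 and H2-Eb2). The 12 count the peak of Tap1 and Psmb9 once for each gene and leave out H2-DMa, whose highest peaks lay at different starts. At 3 of these 4 the match touched footprints of both replicates, by at least 1 base in each. At H2-Ab1 and H2-Aa it lay wholly inside them, and at H2-Eb1 2 of its 8 bases did in replicate 1 and 8 in replicate 2. Of the 10 class I promoter peaks, 4 held the letters (H2-K1, H2-D1, H2-Q7 and H2-T23), and 2 of the 4 matches touched footprints of both replicates. At H2-T23 6 and 8 of the 8 bases lay in footprints of replicates 1 and 2, and at H2-D1 only 1 and 2. How often such matches touch footprints over all promoters was not counted.

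In windows of 200 bp around peak midpoints, the Y box letters lay in 23.5% (4 of 17) of class I and 22.2% (4 of 18) of class II and processing peaks within 500 bp of a start in replicate 1, against 3.76% of all such peaks of the genome. In replicate 2 the shares were 17.6% (3 of 17) and 33.3% (5 of 15), against 3.85%. Among all peaks at any distance the letters were in 5.66% of class I and 6.41% of class II and processing peaks in replicate 1, against 1.31% of the genome's, and in 7.55% and 6.94% in replicate 2, against 1.81%. The letters thus took a higher share of MHC windows than of all windows in both replicates, over few peaks.

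The RFX letters AGCAACNG lay in the H2-Eb1 and H2-Eb2 promoter peaks and, of class I, in that of H2-M3. In windows near starts, these letters were in 11.1% (2 of 18) and 13.3% (2 of 15) of class II and processing peaks in replicates 1 and 2. The class I share was 5.88% (1 of 17) in each. Of all windows within 500 bp of a start 3.30% held these letters in replicate 1 and 3.26% in replicate 2. At H2-Eb1 all 8 bases lay in footprints of both replicates, in the capital run before the Y box, and an E box match (CANCTG) lies inside the same letters. The CRE letters TGACGNCA were found at H2-Aa, Psmb8 and the peak of Tap1 and Psmb9, each time wholly within footprints of both replicates, and at H2-Q4. These letters were in 3.66% and 3.83% of all peaks within 500 bp of a start. At Tap1 the match overlaps an E box match by 2 bases.

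The shorter letters TGACGC, chosen after the sequences had been seen, are close to the CREB-like element of class I promoters called site alpha. They were in 4 of 10 class I promoter peaks (H2-K1, H2-D1, H2-Q4 and H2-M3) and in 0 of 12 of class II and processing, and at H2-K1, H2-D1 and H2-M3 all 6 bases were in footprints of both replicates. Of all peaks within 500 bp of a start, 8.34% held them in replicate 1 and 8.95% in replicate 2, against 23.5% (4 of 17) of the class I ones in either replicate. The interferon-response letters GAANNGAAA were in 6 of 10 class I promoter peaks and 2 of 12 of class II and processing, and 0 of these 8 matches touched footprints of both replicates. In windows, they were in 29.4% (5 of 17) of class I peaks near starts in replicate 1 and 23.5% (4 of 17) in replicate 2, against 3.85% and 2.90% of all such peaks.

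The letters GGGANNNCC of NF-kB sites were in 3 class I promoter peaks (H2-K1, H2-D1 and H2-Q7). Of their 6 matches 3 touched footprints of both replicates, at H2-K1 and H2-D1. At H2-K1 only 1 match did, with 9 and 6 of its bases in footprints of replicates 1 and 2. The other H2-K1 match, nearer the peak centre, had 0 bases in footprints of either replicate. The same letters were in 3 class II and processing peaks (H2-Aa, H2-Oa and Psmb8), with 0 matches touching footprints of both. In windows near starts they were in 35.3% of class I and 16.7% of class II and processing peaks in replicate 1, against 18.1% of all, and in 23.5% and 26.7% in replicate 2, against 19.5%. TATAAA was in 4 class I promoter peaks and 0 of the 12 of class II and processing. In windows near starts it was in 17.6% (3 of 17) and 23.5% (4 of 17) of class I peaks, against 2.98% and 2.19% of all. The GC-rich letters GGGGCGG were in the peak of Tap1 and Psmb9, within a footprint of both replicates, and in that of H2-T24. Those letters were in 17.6% and 23.5% of class I peaks near starts, under the 30.8% and 33.9% of all such peaks. Of the 3 printed distal peaks, that of H2-Oa held the CTCF letters AGNNGGCGC inside a run of capitals, and those of H2-D1 and Prr3 held the Runx letters TGTGGTT, in capitals at H2-D1 and outside them at Prr3. CTCF letters were in 6.70% and Runx letters in 7.90% of all replicate 1 peaks, and in 9.33% and 6.16% of all replicate 2 peaks. The Prr3 peak also held CCAAT, E box and Ets (CAGGAAG) letters, found in 20.9%, 50.7% and 15.9% of all replicate 1 peaks. That of H2-Oa also held E box and NF-kB letters. Only exact matches were searched, so sites that differ from the letters were not counted.

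**Figure D1:**
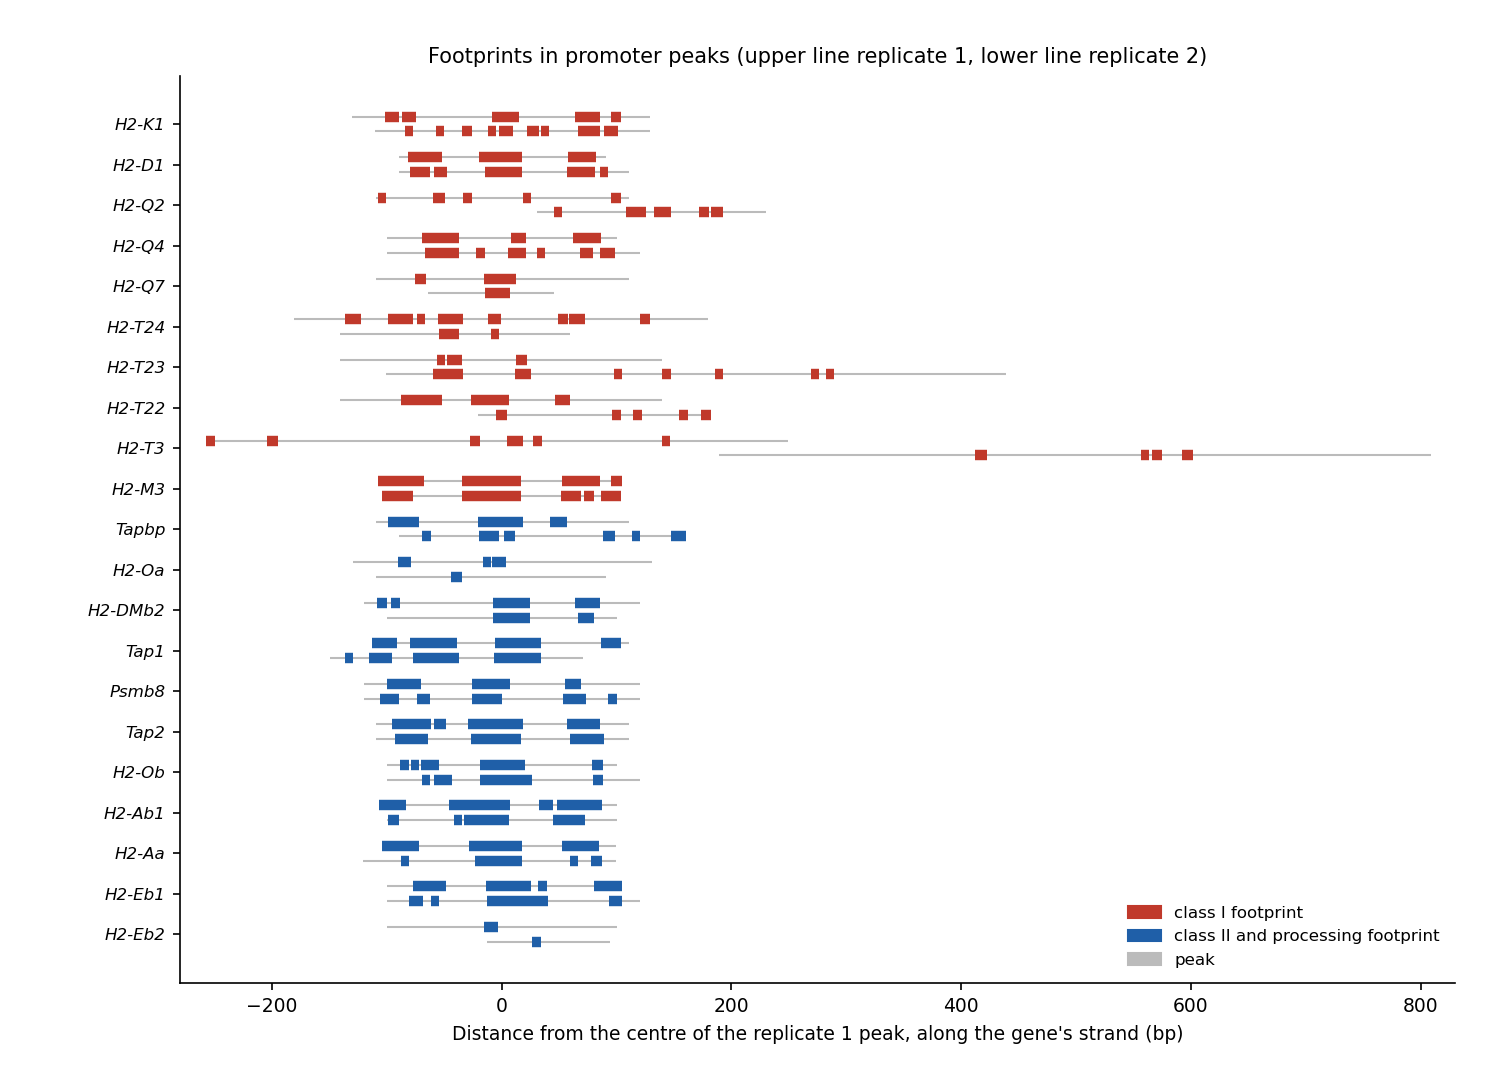
Footprints (coloured bars) within promoter peaks (grey lines) of class I and of class II and processing genes whose peaks overlapped in both replicates, by distance in bp from the centre of the replicate 1 peak along the gene's strand. Bars of the upper line (replicate 1) and lower line (replicate 2) largely coincide for H2-M3, H2-D1, Tap1 and Tap2, and at H2-Q2 and H2-T3 the peaks of the replicates overlap at their ends only.

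The MHC was densely packed with open sites in both replicates. It held 181 and 137 peaks per Mb in replicates 1 and 2, against 59.8 and 32.7 on the rest of chromosome 17 and 48.5 and 25.5 in the rest of the genome. It is also rich in genes, with 184 protein-coding genes or 51.1 per Mb, against 9.54 and 7.99. The share of peaks within 1 kb of a start was 39.7% and 45.9%, against 21.7% and 34.8% in the rest of the genome.

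Footprints were dense too, at 646 and 450 per Mb, against 137 and 76.6 in the rest of the genome. There were 3.58 and 3.27 footprints for each peak, footprints outside peaks included, against 2.82 and 3.01. Footprints of replicate 1 were overlapped by a replicate 2 footprint in 41.5% of cases, against 33.5% over all footprints. Footprints of replicate 2 were overlapped in 61.3%, near the 61.8% over all footprints.

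MHC peaks were higher than the typical peak of their library. Their median height was 1.90 times the library median in replicate 1 and 1.33 times in replicate 2, against 0.991 and 1.00 in the rest of the genome. A replicate 2 peak shared at least 1 bp with 57.7% of MHC peaks of replicate 1, against 43.2% of all peaks. In the other direction the share was 77.0%, under the 83.2% of all peaks. In replicate 2, 12.3% of MHC peaks (61) lay in runs of low peaks, meaning at least 5 peaks under 0.5 of the library median within 10 kb, against 2.25% in the rest of the genome.

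Open sites were unevenly spread along the region. The window of 100 kb from 36100000 to 36199999, which holds H2-T3 and the predicted genes Gm19684 and Gm7030, had 70 and 39 peaks, the most in either replicate (39 was also reached in replicate 2 from 34200000 to 34299999, at Tap2, H2-Ob, H2-Ab1 and H2-Aa). Windows with 0 peaks in both replicates were those from 36500000 to 36699999, from 37100000 to 37199999 and from 37400000 to 37499999. The first of these gaps holds the starts of H2-M11, H2-M9 and H2-M1.

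**Figure D2:**
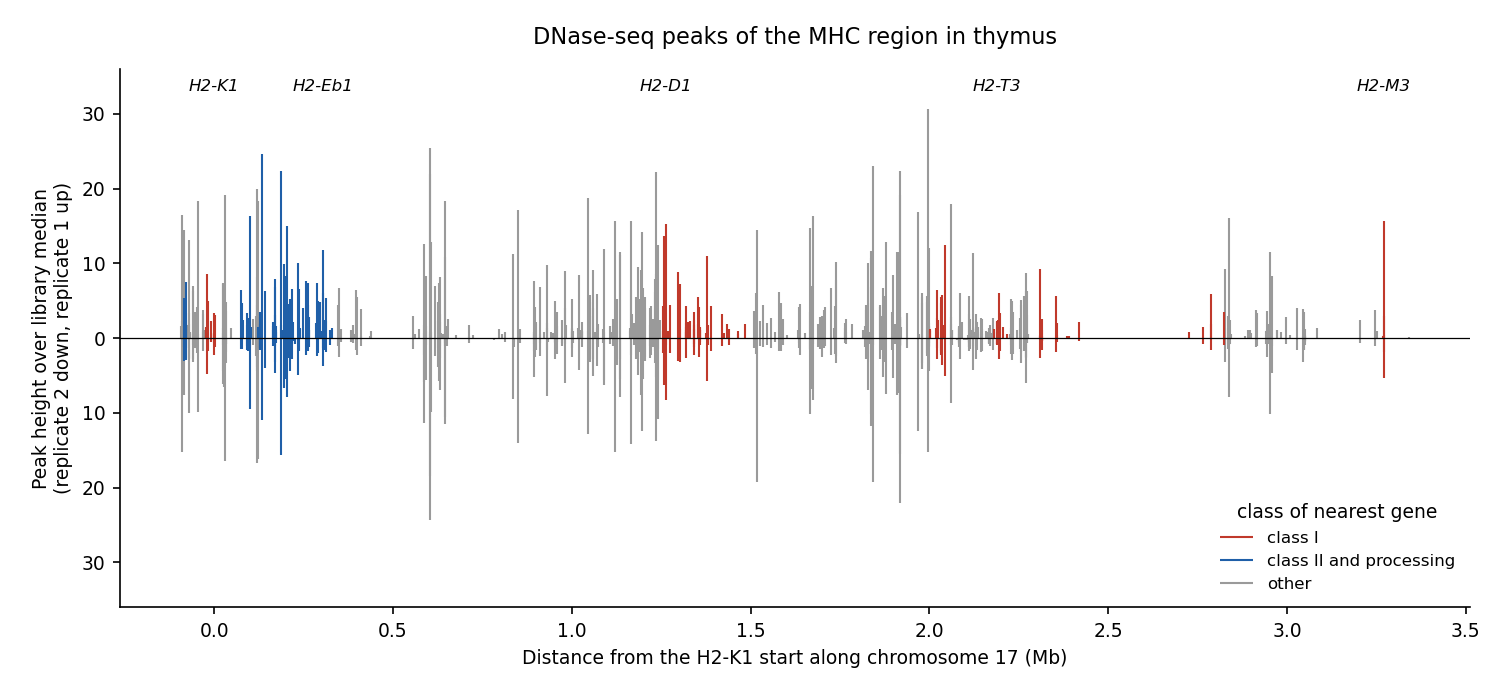
Height over the library median of each peak (vertical lines) along the region, by distance in Mb from the H2-K1 start, replicate 1 upward and replicate 2 downward, coloured by the class of the nearest gene. Class II and processing peaks stand together around and shortly after H2-K1, class I peaks lie in several separate blocks, and the highest peak of replicate 1 reaches 30.7 over the library median.

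Taken as whole classes, class II and processing had the densest open chromatin and class I the sparsest. The territory of class II and processing, the 0.265 Mb nearest to its 14 genes, held 78 and 72 peaks, or 294 and 271 per Mb. Class I territory was larger, 0.935 Mb for 24 genes, and held 106 and 53 peaks, or 113 and 56.7 per Mb. The 146 other genes had 466 and 370 peaks over 2.40 Mb, or 194 and 154 per Mb. The order of the classes was the same in both replicates, and class I peaks were denser than the 48.5 and 25.5 per Mb of the rest of the genome. With only those peaks in which at least 90% of the 36-base words occur at 1 place in the genome, class I had 52.4 and 27.8 per Mb, near those values, which were not restricted in the same way. The class I families differed. H2-M, 577 kb of the class I territory, had 36.4 and 22.5 per Mb over all its peaks. In replicate 1 H2-T (355) and H2-K (307) were denser than class II and processing. In replicate 2 no class I family was, and H2-K was the densest of them with 195.

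Footprints followed the same order of the classes. There were 297 and 215 footprints in class II and processing (1120 and 810 per Mb), 340 and 163 in class I (363 and 174 per Mb) and, for the other genes, 1688 and 1243 (704 and 518 per Mb). In class I 28.8% of replicate 1 footprints were overlapped in replicate 2 and 63.2% the other way round. In class II and processing the shares were 39.1% and 56.3%. In replicate 1 the class I share lay under the 33.5% of all footprints and the class II and processing share over it, while in replicate 2 the order was turned round about the 61.8%.

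Heights differed less between the classes than densities did. The median height over the library median was 2.80 and 1.37 for class II and processing, 1.70 and 1.59 for class I, and 1.80 and 1.30 for the other genes. In replicate 1 class II and processing peaks were the highest by this measure, and in replicate 2 class I peaks were. With equal numbers of highest peaks taken from each library, class II and processing had 1.37 and 1.37. Class I then had 0.941 and 1.59, and the other genes 1.28 and 1.30. The replicate 1 median of each class was thus lower at equal numbers. The replicate 2 lead of class I depended on the settings. With the predicted class I genes moved into class I its replicate 2 median was 0.972, below 1.37 for class II and processing and 1.44 for other. Without runs of low peaks, an alternative chosen after seeing the data, class I and class II and processing both had 1.55 in replicate 2. The order of the classes by height therefore differed between the replicates, and these medians were not tested.

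The share of peaks found in both animals was taken next. In replicate 1, 46 of 106 class I peaks (43.4%) were overlapped in replicate 2, beside 49 of 78 (62.8%) of class II and processing, 60.1% of the other genes and the 43.2% of all peaks given above. In replicate 2, 49 of 53 class I peaks (92.5%) were overlapped in replicate 1, beside 50 of 72 (69.4%) of class II and processing, 76.2% of the other genes and 83.2% of all peaks. In replicate 1 the class I share was thus at that of all peaks, and the shares of the other MHC classes were above it. In replicate 2 the class I share was above that of all peaks, with 106 class I peaks of replicate 1 set against 53. With the predicted class I genes moved into class I, its replicate 2 share was 77.0%, below that of all peaks.

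Among higher peaks of replicate 1 the class I share was below that of the genome. Of the 79 class I peaks of replicate 1 at or above the library median, 44 (55.7%) were overlapped in replicate 2, against 67.1% for class II and processing, 78.7% for the other genes and 75.8% in the rest of the genome. All 32 such class I peaks of replicate 2 were overlapped in replicate 1. In class II and processing, 17 of the 72 replicate 2 peaks lay in a run of low peaks between 34206601 and 34225740, beside Tap2 and H2-Ob, with 2 of them overlapped in replicate 1. Without such runs 87.3% of its replicate 2 peaks were overlapped, an alternative chosen after the data had been seen.

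Class I sequence is repetitive, which bears on what reads can be placed. In class I territory 68.0% of all 36-base words occurred at 1 place in the genome, against 89.4% in class II and processing territory and 84.8% in that of the other genes. In the H2-Q family the share was 46.3%. Of the class I peaks 46.2% and 49.1% consisted of unique words to at least 90%, beside 96.2% and 90.3% of class II and processing peaks. The aligner's rule for reads with several matches is not given in the sources used here, and the part of repeated sequence in the class I results was not tested beyond restricting them to unique peaks.

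**Figure D3:**
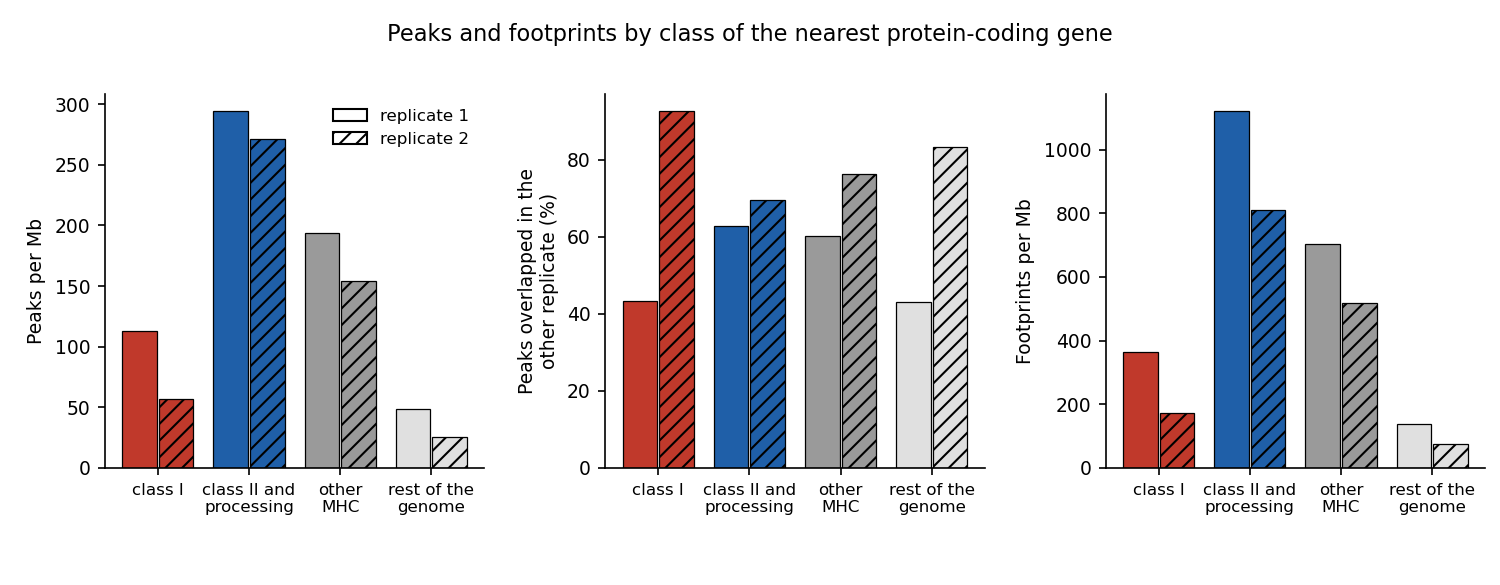
Bars give peaks per Mb, the percentage of peaks overlapped in the other replicate and footprints per Mb for class I, class II and processing, and other genes of the MHC, and for the rest of the genome, with replicate 1 plain and replicate 2 hatched. Class II and processing stands highest in both densities in both replicates (294 and 271 peaks per Mb), and class I has the widest gap between the replicates in the overlapped share (43.4% and 92.5%).

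Promoters of class II and processing genes were nearly all open, and those of class I genes differed by family. A promoter peak, within 500 bp of any start of the gene, was found for 13 of 14 class II and processing genes in replicate 1 and again in replicate 2, where H2-DMb1 had none in either. Of the 24 class I genes, 11 had one in replicate 1 and 10 in replicate 2, and 10 had one in both. Of the 146 other genes 90 and 86 had one. Over all 21938 protein-coding genes the shares were 61.9% in replicate 1, 56.6% in replicate 2 and 56.0% in both, so class II and processing (92.9%) lay above the genome and class I (41.7% in both) below it. The H2-M family held 12 of the 24 class I genes, and 1 of the 12 had a promoter peak in each replicate. All H2-K, H2-D and H2-T genes had one in each, and of 6 H2-Q genes 4 had one in replicate 1 and 3 in replicate 2.

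Within class I the open promoters were those of both classical genes, of the H2-T family and of part of the H2-Q family, and that of H2-M3. H2-D1, a classical gene, had a promoter height of 15.3 and 8.33 over the library median in replicates 1 and 2, or 11.8 ± 4.95 (SD, n = 2). H2-K1, the other classical gene, had 3.31 and 2.27, or 2.79 ± 0.742. H2-D1 was higher than H2-K1 in both animals, and the ranges of the 2 genes did not overlap. The peak used for H2-D1 lay between bases 35262901 and 35263080, 260 bp from the nearest annotated start, in sequence annotated as untranslated.

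Higher peaks of H2-K1 lay far from its start. The highest, at 33981241 to 33981440 and 16145 bp away, had 8.56 and 4.78 over the library median, and 60.0% of its words were unique. Its next, 15135 bp away, had 4.99 and 1.78. Both exceeded the H2-K1 promoter in replicate 1, and the second did not in replicate 2.

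H2-M3, which shows peptides that start with formyl-methionine, had the class I promoter of the greatest replicate 1 height, at 15.6 and 5.28. H2-T22, whose product is known as a ligand of some gamma-delta T cells, had 12.5 and 5.07. H2-Q4 had 11.0 and 5.69. With H2-D1 these were the 4 class I promoters over 5 times the library median in both replicates.

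H2-T24 had 6.43 and 2.78, and H2-T23, which encodes Qa-1, a ligand of NK cell receptors, had 5.55 and 2.06. H2-Q2 had 3.51 and 2.29, although 65.9% and 43.0% of the words in its peaks were unique. H2-T3, which encodes the thymus leukaemia antigen, had 2.30 and 0.958. These peaks overlapped at their ends, and a further replicate 2 peak wholly inside the replicate 1 peak had 0.825.

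The lowest were H2-Q7, one of the Qa-2 genes, with 1.17 and 0.888, and H2-Q1, with 1.42 in replicate 1 and no promoter peak in replicate 2. H2-Q6 and H2-Q10 had no promoter peak in either. At H2-Q7 45.4% of the words of the peak were unique, and near-identical copies among the H2-Q genes mean that the reads may belong to a neighbour.

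Of the 12 H2-M genes only H2-M3 had a promoter peak. The other 11 (H2-M1, H2-M2, H2-M5, H2-M9, H2-M11 and the H2-M10 genes, known from vomeronasal neurons) had none in either replicate. H2-M territory as a whole had 36.4 and 22.5 peaks per Mb, the lowest of the families, beside 355 and 149 for H2-T, 307 and 195 for H2-K, 185 and 77.0 for H2-Q and 172 and 123 for H2-D.

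**Figure D4:**
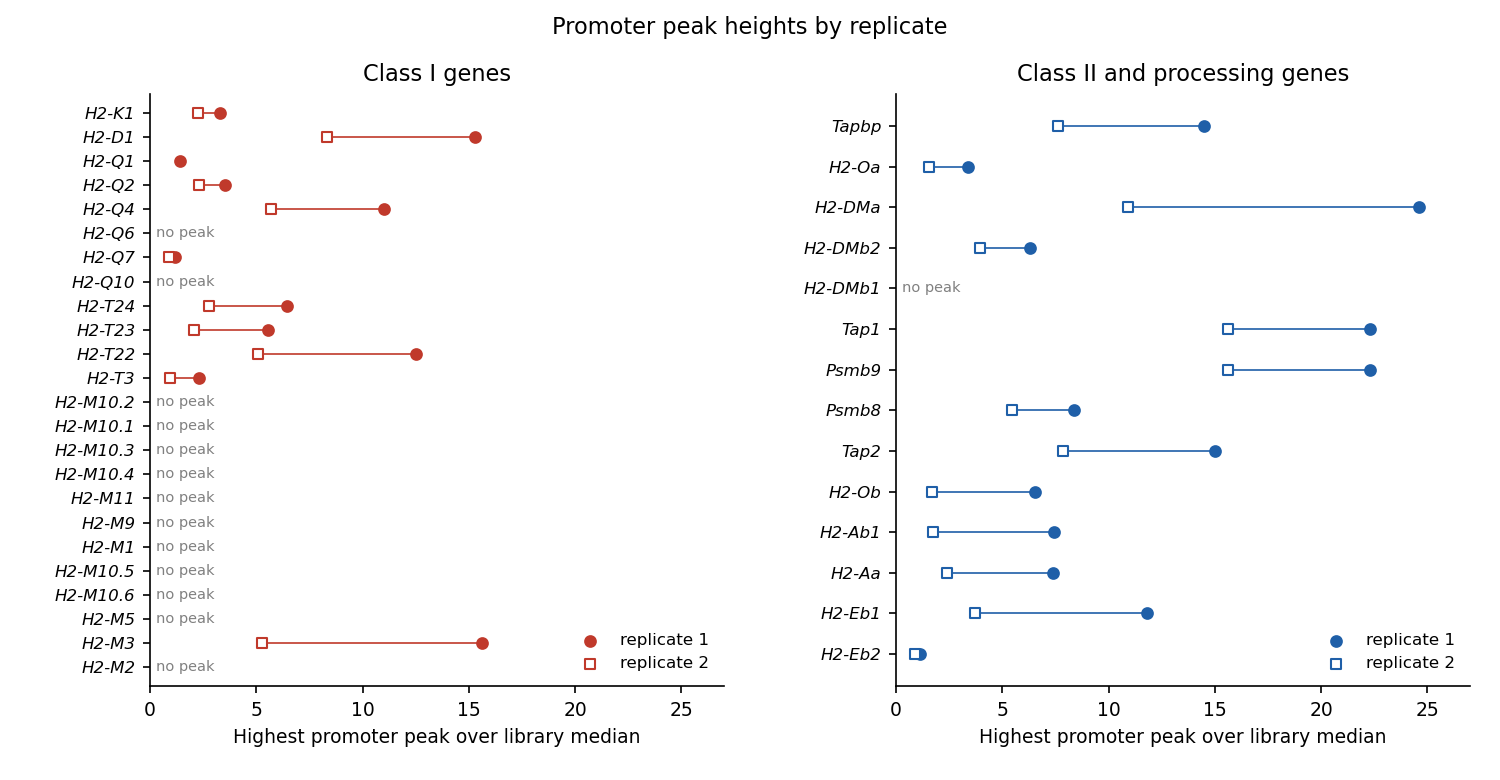
Height over the library median of the highest promoter peak of each class I gene (left) and each class II and processing gene (right), with replicate 1 as filled circles and replicate 2 as open squares. For H2-DMa the pair of overlapping peaks at its inner start is drawn. Every gene drawn with both symbols lies lower in replicate 2 on this scale (in deposited heights H2-Q7 and H2-Eb2 are slightly higher in replicate 2), and 11 of the 12 H2-M genes have no peak.

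Among class II and processing genes the highest promoters were those of Tap1 with Psmb9 and of H2-DMa. Tap1 and Psmb9, which share a promoter on opposite strands, had 22.3 and 15.6 over the library median, or 19.0 ± 4.72 (SD, n = 2). Tap2 had 15.0 and 7.84, at a peak 390 bp from its nearest start. Psmb8 had 8.37 and 5.43. Tapbp, read at the peak shared with the start of Zbtb22 on the same strand, had 14.5 and 7.61.

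H2-DMa, which carries a chain of the peptide-loading catalyst, had 24.6 and 10.9 at the overlapping peaks from 34135361, 158 bp from its inner start. A further annotated start of H2-DMa lies near the promoter of Brd2, where the replicate 2 peak had 16.2, so the choice of start sets the replicate 2 value. H2-DMb2 had 6.29 and 3.96. H2-DMb1 had no promoter peak, and its nearest shared peak lay 11628 bp from its start with 2.11 and 1.06.

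The genes of the antigen-presenting chains and of H2-O lay below Tap1, Tap2 and Tapbp in both replicates, with H2-Eb1 above Psmb8 in replicate 1. For Tapbp this order holds at the peak shared with Zbtb22. The next Tapbp peak, 244 bp from a start, had 5.32 and 3.09. That was below H2-Eb1 in both replicates and below H2-Ab1, H2-Aa and H2-Ob in replicate 1. H2-Eb1 had 11.8 and 3.71, H2-Ab1 had 7.42 and 1.73, and H2-Aa had 7.36 and 2.38 over the library median. H2-Ob had 6.52 and 1.69, H2-Oa had 3.40 and 1.57, and H2-Eb2 had 1.13 and 0.881. Each of these 6 genes had a promoter peak in both replicates.

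The replicates differed most at 4 of these promoters. In the authors' deposited heights, replicate 1 was above replicate 2 by 1.70 on the log2 scale at H2-Ab1, 1.54 at H2-Ob, 1.26 at H2-Eb1 and 1.22 at H2-Aa. At the processing genes the difference was 0.11 at Tap1, 0.22 at Psmb8 and 0.53 at Tap2. For all 60801 overlapping pairs of the genome the median was 0.51 and the quartiles were 0.10 and 0.93. H2-Ab1, H2-Ob, H2-Eb1 and H2-Aa thus lay above that range, and Tap1, Psmb8 and Tap2 within it. Not all class II genes differed so, with 0.71 at H2-Oa, 0.26 at H2-DMb2 and -0.05 at H2-Eb2. The class I genes H2-M3 (1.16) and H2-T23 (1.02) lay above the range as well.

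Markers of the cells known to make class II molecules were few beside these peaks. The promoter of Aire, a gene of thymic epithelium, had 8.32 and 5.35, and that of Epcam 1.20 and 1.17. The other thymic epithelium genes of the list (Foxn1, Psmb11, Krt5 and Krt8) had no promoter peak in either replicate. The B cell gene Cd79b had 1.53 in replicate 1 and none in replicate 2, and of 4 B cell genes and 5 of dendritic cells and macrophages no other had a promoter peak in either. The part of such cells in the class II peaks was not tested.

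The same trend held for pairs of overlapping peaks. Replicate 1 was the higher by deposited height in 47 of 50 class I pairs (94.0%) and 48 of 51 class II and processing pairs (94.1%). It was the higher in 77.6% of 312 pairs of the other genes and in 80.2% of all pairs of the genome. The median log2 difference was 0.75 for class I, 0.61 for class II and processing, and 0.39 for the other genes. Over the 413 pairs of the region Pearson's r of the log2 heights was 0.894 and Spearman's rho 0.903. These describe the pairs only, since peaks share their libraries and are not replicates.

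**Figure D5:**
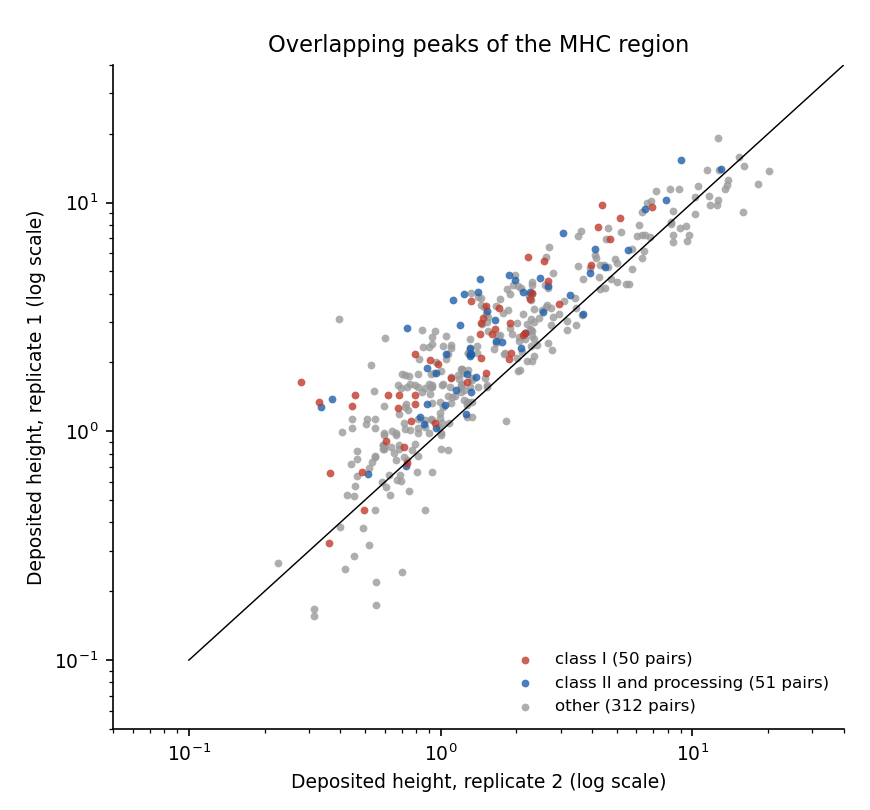
Deposited height of overlapping peaks of the region in replicate 1 (vertical, log scale) against replicate 2 (horizontal, log scale), with a line of equal heights and points coloured by class. Class I and class II and processing points lie above the line in 47 of 50 and 48 of 51 pairs.

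Of the class I peaks, 60 of 106 were seen in replicate 1 alone and 4 of 53 in replicate 2 alone. The first of these counts was at the share of all peaks, of which 43.2% were overlapped, and the second below it, with 83.2% overlapped. The highest of replicate 1 lay 8511 bp from a start of H2-Q2, at 35353381 to 35353640, with 5.45 over the library median and 5 footprints. The next lay near H2-T3 and H2-T24, with 2.48 and 2.46. The 4 of replicate 2 reached 0.972 at most, beside H2-Q4.

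In class II and processing 29 of 78 were seen in replicate 1 alone and 22 of 72 in replicate 2 alone. The overlapped shares were thus 62.8% and 69.4%, against 43.2% and 83.2% of all peaks. Of the 72, 17 lay in the run of low peaks beside Tap2 and H2-Ob, and only 2 of these 17 were overlapped. Those of replicate 1 were led by peaks beside H2-Aa (4.88, 8467 bp from its start), in an intron of H2-Ab1 (4.41) and in an intron of H2-Ob (4.09). The highest of replicate 2 lay in Tapbp, with 1.14. The peaks lacking in replicate 2 thus included tall ones beside class II genes, while those lacking in replicate 1 were near or under the library median.

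Shared distal peaks, over 1 kb from any protein-coding start, included some of the highest of the region. The highest lay 16954 bp from a start of Prr3, between genes, with 30.7 and 15.3 over the library median, and it was the highest of all replicate 1 peaks of the region. It is printed above as the last sequence. An intron of Ppp1r10 held the next, with 22.3 and 15.5. Of the 10 highest, 1 was classed with class I and 2 with class II and processing.

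The class I one lay 4390 bp from the nearest start of H2-D1, with 13.7 and 6.25, close to the 15.3 and 8.33 of the H2-D1 promoter. Those of class II and processing lay beside H2-Oa, with 16.4 and 9.48, and in a coding exon of Tap1 near Psmb8, with 9.94 and 6.70. The H2-Oa peak stood far above the H2-Oa promoter (3.40 and 1.57) in both animals. The remaining 7 of the 10 were that of Prr3, that of Ppp1r10 and 5 nearest to Gm11127, Ltb, Gpsm3, Tubb5 and Flot1, with 10.0 to 17.9 in replicate 1 and 6.97 to 12.4 in replicate 2.

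Other genes of the region set the upper end of promoter heights. Agpat1, an acyltransferase of phospholipid synthesis, and Rnf5, a ubiquitin ligase, are divergent neighbours. At the overlapping peaks of Agpat1 the heights were 22.0 and 24.3, and at those of Rnf5 25.4 and 18.4. Mdc1, a DNA damage adaptor, had 23.0 and 19.3, and Ppp1r10 with its neighbour Mrps18b had 19.2 and 22.1.

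Atp6v1g2, a subunit of the vacuolar proton pump, had 22.2 and 13.8. Rxrb, a retinoid X receptor, and Slc39a7, a zinc transporter, shared a peak with 19.1 and 16.5. Brd2, which binds acetylated histones, had 18.4 and 16.2, and Cchcr1 and Tcf19 shared 14.5 and 19.2. Against these promoters, those of Tap1 and Psmb9 (22.3 and 15.6) were of like height, and those of H2-K1 (3.31 and 2.27) far lower in both animals.

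Families inside the region differed in how many promoters were open. Of the TNF cluster, 6 of 6 genes had a promoter peak in replicate 1 and 5 in replicate 2, which lacked Lst1. Its highest were Ltb, which encodes lymphotoxin beta, with 9.11 and 7.62, and Nfkbil1, with 8.54 and 5.17. Tnf itself had 3.53 and 1.68. The 3 Hsp70 genes had one in both, with 3.47 and 2.16 for Hspa1b and 2.37 and 1.01 for the peak shared by Hspa1a and Hspa1l. Only 38.2% and 43.4% of the words of the Hspa1b peaks were unique, and 30.7% of those of the shared peak in each replicate. The part of repeated sequence in these heights was not tested.

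Of 6 Trim genes 2 had a promoter peak in both replicates, Trim26 with 16.0 and 7.94 and Trim39 with 8.69 and 6.03. Of the 6 Ly6g genes 3 had one in replicate 1 and 2 in replicate 2, led by Ly6g5b with 2.56 and 1.08 and Ly6g6d with 1.92 and 1.20. Of 3 complement genes only C2 had one, at different peaks in the replicates, with 0.843 and 1.69. Of 4 butyrophilin-like genes only Btnl2 had one, with 1.21 and 0.559. None of the 20 olfactory receptor genes of the region had one in either replicate.

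The 10 genes with the most peaks were led by Gm19684, with 27 peaks in replicate 1 and 28 in replicate 2, of which 6 and 6 were overlapped in the other replicate. Runs of low peaks lay there, 12 peaks in replicate 1 between 36108761 and 36124840, and 20 in replicate 2 between 36096541 and 36109340. Gm11127 had 13 and 24 peaks with a run of 17 in replicate 2, and Tap2 had 11 and 26. Ddr1, a collagen receptor, followed with 18 and 13, of which 11 and 11 were overlapped. The others were Ppp1r18, Prr3, Gm7030, H2-Q2, Gabbr1 and H2-T3.

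Partner genes outside the MHC were read at their promoters. Of 24 annotated genes of the pathway, 22 had a promoter peak in replicate 1 and 22 in replicate 2, beside 61.9% and 56.6% of all protein-coding genes. B2m, the light chain of class I molecules, had 13.4 and 6.48 over the library median, and Nlrc5, the class I activator, had 4.95 and 3.71. Among further genes of the class I path, Erap1, a peptide trimmer, had 4.33 and 2.34 and the immunoproteasome subunit Psmb10 had 3.14 and 1.05. Psmb11, the proteasome subunit of cortical thymic epithelium, had no promoter peak in either replicate. Of the subunits of RFX, Rfx5 had 15.9 and 6.69, Rfxank had 19.1 and 14.9, and Rfxap had 10.4 and 6.36. Nfya, a subunit of NF-Y, had 28.4 and 20.6.

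Partners of class II molecules ranged widely. Ciita, the class II activator, had no promoter peak in replicate 1 and 0.420 in replicate 2. Cd74, the invariant chain, had 2.09 and 1.08, and Ctss, a protease that trims it, had 0.583 in replicate 1 and none in replicate 2. Ctsl, a protease of thymic epithelium and other cells, had 8.37 and 5.34.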

How the data were processed

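DNase-seq peaks, footprints and false discovery rates of the cut rate were deposited for each library on mm10, per the README files deposited with the samples, and were not pooled. The deposited signal in the peak files is the authors' peak height, and its scaling, the aligner, the callers, their versions and the read depth are not given in the sources used here, so no counting interval was computed. The deposited p-value or q-value lists held rates under 0.05, and footprints carried the value 0.01 throughout. At rates under 0.05 the lists covered 8.93% and 5.20% of the region, against 2.03% and 0.885% of the genome.

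Of each library's 2 peak files the larger was used. Starts came from GENCODE M21 and sequence from GRCm38.p6, with Python 3.11.15, numpy 2.4.6 and pandas 2.3.3. Peaks were given to starts by midpoint and distances run from it, except that a promoter peak needed any base within 500 bp of a start. Coordinates are 1-based. A word was unique where its 36 bases occurred once on either strand of the assembly. The distances to the nearest start, the overlaps, the word counts and the joining of peaks were tested on simulated data. With 1 group of 2 animals no test was run. Named genes were all class I and all class II and processing genes, the 10 other genes with the highest promoters (a tie adds 1), the highest 2 of each family, the 10 highest shared distal peaks, the 10 genes with the most peaks and the highest 3 peaks of 1 replicate alone. The members and lists were chosen with earlier results of these data known. Reads of the CAST/EiJ chromosomes that differ from the reference may be placed less often, which was not measured. Ifi30, also on the pathway list, was not matched by symbol.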

Additional observations from a re-analysis of the deposited data

How the results depend on the processing

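Of 109 alternatives other than leaving out a replicate, 91 kept their value within the spread between the replicates (1 SD) or a count within 1.5 times, and 18 did not. A result that differs widely between the replicates can hardly leave that spread, so staying within it does not show that it is stable. The class I overlapped share, for example, fell from 67.9% to 46.7% when 50% of both peaks had to overlap. With an SD of 34.7 it counted as kept. Means over the replicates are given here. With the stricter peak file the region had 127 peaks per Mb, class I a median height of 1.30 over the library median, and class II and processing 251 peaks per Mb with 61.1% overlapped. With peaks of unique words alone, class I had 40.1 peaks per Mb, a median height of 1.53 and 150 footprints, and class II and processing 264 peaks per Mb. Class I had a median height of 1.27 with equal numbers of peaks and 1.19 with predicted class I genes added. Class II and processing had 265 peaks per Mb when classed by gene start alone, and 54.8% overlapped when 50% of both peaks had to overlap. Without runs of low peaks, chosen after seeing the data, it had 251 peaks per Mb and 73.8% overlapped. Class I footprints numbered between 163 and 340 when either replicate was left out. The order of the classes by peak density was not reversed under these settings. No paired analysis was possible because there was 1 group. Depth is unknown, so a peak lacking in a replicate was not detected there and cannot be called closed.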
